A study of Mus musculus with 76 samples.

Results

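AMP-activated protein kinase (AMPK) and its upstream kinase LKB1 are described here through 7 genes in visceral white adipose tissue (WAT) and liver. These are the 6 subunit genes *Prkaa1*, *Prkaa2*, *Prkab1*, *Prkab2*, *Prkag1* and *Prkag2*, together with *Stk11*, which encodes LKB1. They were chosen by gene symbol, with earlier results of these data known. All 7 were found among the 18964 entries measured in WAT and the 16775 entries measured in liver. AMPK is a heterotrimer of a catalytic α, a scaffold β and a nucleotide-binding γ subunit, each encoded by paralogous genes, and it is switched on when AMP and ADP rise relative to ATP. LKB1, held in a complex with a STRAD pseudokinase and an MO25 protein, phosphorylates the α subunit, and active AMPK restrains fat and sterol synthesis and mTORC1. Fnip1 and Fnip2 are known to bind both folliculin and AMPK, which links this kinase to the *Fnip2* allele studied.

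The mice were females of a C57BL/6 background with free access to food and drink, either homozygous for the ancestral T allele of the *Fnip2* 3′ untranslated region (called T/T) or for a C allele knocked in with CRISPR/Cas9 in blastocysts (called C/C). Both changes of the knock-in, the T-to-C change and a second one that removes the Cas9 recognition motif, are carried by every C/C mouse, and the age of the mice sequenced was not given in the sources used here. WAT was taken from 4 mice with the C allele and 5 with the T allele and liver from 5 and 5, and 6 mice gave both tissues. RNA was measured with a 3′ tag method (QuantSeq), so that each value counts reads near the end of a transcript and says nothing of splice forms, protein or phosphorylation.

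The allele was designed around a match to miR-181b-5p, and these sequences are shown because the genotype compared throughout differs in them. In the microRNA, taken from RefSeq (GRCm38.p6), capitals mark the seed, bases 2 to 8. In the mouse *Fnip2* site, taken from the GENCODE vM21 transcript on GRCm38, capitals mark the 7 bases opposite the seed, and the C allele was written from it with the changes T15C and G21C, where base 1 is the first one printed.
miR-181b-5p: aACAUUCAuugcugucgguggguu
*Fnip2* T allele: ataagtgataTGAATGTataggcaattgtg
*Fnip2* C allele: ataagtgataTGAACGTatacgcaattgtg

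The letters TGAATGT were then looked for on the sense strand of the longest annotated 3′ untranslated region of each of the 7 genes. They occurred once in *Prkaa1*, 3 times in *Prkaa2* and once in *Prkag2*, and did not occur in *Prkab1*, *Prkab2*, *Prkag1* or *Stk11*, while 18.84% of the 12265 genes tested in either tissue with such a region held them. The match in *Prkaa1* is shown because this was the only gene of the 3 called between the genotypes, and it starts at base 750 of a region of 2970 bases.
*Prkaa1*: tcagccagtgtTGAATGTctttggtattt

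Each library is named by its mouse number. The reads per library ranged from 4180209 to 6277644 in WAT and from 5583041 to 7523200 in liver. The labelled tissues carried their markers, with summed normalized counts of the 5 hepatocyte markers of at least 528035 in liver and at most 2891 in WAT, and of 6 adipocyte markers of at least 67051 in WAT, of which 3 were in the liver table and summed there to at most 138. In WAT, 4 of the 6 adipocyte markers fell in C/C (*Adipoq*, *Plin1*, *Lep* and *Fabp4*), although the sum of the list overlapped (67051 to 213017 in C/C and 88193 to 174075 in T/T). The 4 endothelial markers summed to 1131 to 2252 in C/C and 2335 to 3580 in T/T, with 3 of the 4 lower. Of the 5 macrophage markers 2 fell and 1 rose, with sums of 2106 to 4242 and 1551 to 2850. The share of reads with snoRNA names was 0.0276% to 0.154% in C/C and 0.00949% to 0.0196% in T/T WAT. The WAT library of the C/C mouse 593 held ovary markers (*Cyp11a1* at a normalized count of 15068, at most 13.6 in the others), and that of the T/T mouse 609 held skeletal muscle markers (*Acta1* at 1026, at most 257 in the others). The part of these differences in the results below was not tested, except that results are given without mice 593 and 609 where they change. In bulk tissue, fewer cells of a type and less RNA per cell cannot be told apart.

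In WAT, 3 of the 7 genes fell in C/C mice, namely the catalytic subunit gene *Prkaa1*, the scaffold subunit gene *Prkab1* and *Stk11*. None of the 7 rose. The share of all genes tested that passed the same threshold in WAT was 32.1% (17% lower and 15.1% higher in C/C), so that 3 of 7 in itself is near that background. The median log2 fold change of the 7 genes was -0.33, beside 0.019 over all genes. In liver, none of the 7 passed the threshold. Fold changes give C/C over T/T as differences of log2(normalized count + 1), tested with limma over all genes with Benjamini-Hochberg adjustment, and a gene was called when its adjusted p was under 0.05.

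*Prkaa1* encodes the α1 catalytic subunit, the form found in most tissues. Its normalized count in WAT was 139, 51.5, 72.6 and 58.6 in the C/C mice 590, 593, 599 and 638, and 183, 143, 135, 212 and 155 in the T/T mice 607, 608, 609, 657 and 658. The genotypes overlapped only through mouse 590, which lay above mouse 609 and below the other T/T mice. The means were 80.4 ± 39.9 (SD, n = 4) and 166 ± 31.7 (SD, n = 5), and the log2 fold change was -1.13 (standard error 0.27, 95% confidence interval -1.71 to -0.54, limma adjusted p = 0.0080), which is a 2.18-fold lower level in C/C. Leaving out each mouse in turn kept the call, with fold changes from -1.42 to -0.95 and adjusted p up to 0.0252.

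*Prkaa2* encodes the α2 catalytic subunit, abundant in liver, muscle and heart. In WAT it was counted with only 14 to 54 reads per library, and its normalized count ranged from 22.8 to 29.4 in C/C and from 15.6 to 49.6 in T/T, so that the former lay wholly inside the latter. The log2 fold change was -0.22 (95% confidence interval -0.93 to 0.49, limma adjusted p = 0.629). This interval overlapped that of *Prkaa1* (-1.71 to -0.54), and whether the fold changes of these genes differ was not tested. A change of any size inside the interval of *Prkaa2* is not excluded.

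*Prkab1* encodes the β1 scaffold subunit, which binds glycogen and holds α and γ together. It had few reads in WAT, with 12, 5, 9 and 4 in the C/C mice and 45, 19, 16, 42 and 58 in the T/T mice. The normalized counts were 14.1, 4.68, 9.76 and 4.69 against 36.9, 18.5, 17.9, 41.6 and 44.0, and all C/C libraries lay below all T/T libraries, as was the case in either direction for 26.1% of all genes tested in WAT. The means were 8.31 ± 4.55 (SD, n = 4) and 31.8 ± 12.7 (SD, n = 5), with a log2 fold change of -1.84 (standard error 0.42, 95% confidence interval -2.76 to -0.93, limma adjusted p = 0.0064). With so few reads the size of the change depended on the number added before the log2, and it was -1.16 with 10 in place of 1, where the call was kept. The call was kept without each mouse in turn.

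*Prkab2*, the gene of the β2 scaffold subunit, was counted at 137 to 219 in C/C and 154 to 226 in T/T WAT, and the genotypes overlapped. The log2 fold change was -0.09 (95% confidence interval -0.50 to 0.32, limma adjusted p = 0.748).

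The nucleotide-binding γ subunits carry the sites where AMP, ADP and ATP compete. *Prkag1*, the gene of γ1, had normalized counts of 717, 1085, 780.4 and 931 in the C/C mice 590, 593, 599 and 638, and of 473, 669, 872, 352 and 582 in the T/T mice 607, 608, 609, 657 and 658. All T/T libraries but that of mouse 609 lay below all C/C libraries. The means were 878 ± 164 (SD, n = 4) and 590 ± 198 (SD, n = 5), with a log2 fold change of 0.62 (standard error 0.25, 95% confidence interval 0.09 to 1.16) that missed the threshold (limma adjusted p = 0.0702). Without mouse 609, the library with skeletal muscle markers, the value was 0.78 (adjusted p = 0.0207), and without mice 593 and 609 together it was 0.67 (adjusted p = 0.0446). It was the one gene of the 7 with a positive fold change in WAT.

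*Prkag2*, the gene of γ2, had normalized counts of 251, 186, 169 and 213 in the C/C mice and of 239 to 274 in the T/T mice, and only mouse 590 of the former reached the range of the latter. The log2 fold change was -0.33 (95% confidence interval -0.69 to 0.02, limma adjusted p = 0.138). *Prkag3*, the gene of the γ3 subunit of skeletal muscle, had 1 to 22 reads per WAT library and a log2 fold change of -1.37 (95% confidence interval -2.72 to -0.02, limma adjusted p = 0.109), and it was not analysed in liver.

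*Stk11* encodes LKB1, the main kinase that activates AMPK. Its normalized count in WAT was 523, 416, 409.7 and 205 in the C/C mice 590, 593, 599 and 638, and 552, 631, 593, 588 and 671 in the T/T mice 607, 608, 609, 657 and 658. All C/C libraries lay below all T/T libraries, while 26.1% of all genes tested in WAT did not overlap in either direction. Mouse 638 lay far below the rest. The means were 389 ± 133 (SD, n = 4) and 607 ± 45.6 (SD, n = 5), with a log2 fold change of -0.72 (standard error 0.24, 95% confidence interval -1.23 to -0.21, limma adjusted p = 0.0348). The adjusted p lay near the threshold, and leaving out 1 mouse lost the call in 6 of 9 cases (mice 599, 638, 607, 608, 657 and 658), with adjusted p from 0.0143 to 0.0750 over the 9. Without mouse 638 the log2 fold change was -0.44 (adjusted p = 0.0750).

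**Figure D1:**
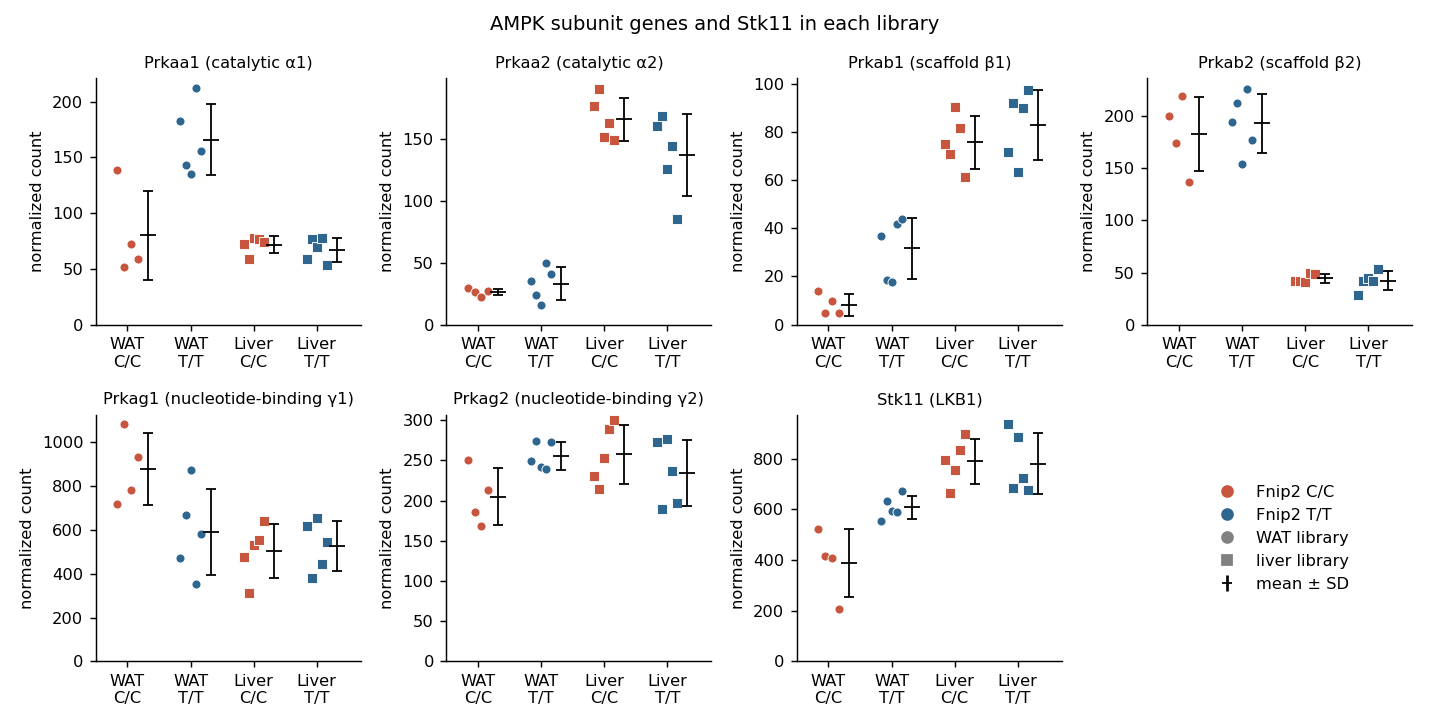
Normalized count (linear axis from 0) of each AMPK subunit gene and *Stk11* in every WAT library (circles) and liver library (squares), with C/C in red, T/T in blue, and the mean ± SD of each group in black. In WAT the C/C libraries of *Prkab1* (at most 14.1) and *Stk11* (at most 523) lie below all T/T libraries (at least 17.9 and 552), whereas the 2 liver groups overlap in all 7 panels. The genotypes did not overlap, in either direction, for 26.1% of all genes tested in WAT.

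In liver the genotypes overlapped for all 7 genes. Of the 11710 genes tested there, 0% were called by limma (0 genes, with 231 at an unadjusted p under 0.05, and also 0 with edgeR and with DESeq2), and the libraries of the genotypes did not overlap for 0.248%. The largest liver difference among the 7 was that of *Prkaa2*, with normalized counts of 177, 190.1, 151, 162 and 149 in C/C and 160.4, 168, 126, 144 and 85.4 in T/T livers. Its log2 fold change was 0.31 (95% confidence interval -0.04 to 0.66, limma adjusted p = 1.00, unadjusted p = 0.0802), with the lowest value in mouse 659.

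The 3 genes that fell in WAT had liver values close together. *Prkaa1* had a mean normalized count of 71.8 ± 7.55 (SD, n = 5) in C/C and 67.2 ± 10.7 (SD, n = 5) in T/T livers, a log2 fold change of 0.10 (95% confidence interval -0.23 to 0.43). *Prkab1* ranged from 61.2 to 90.2 in C/C and from 63.4 to 97.4 in T/T livers, a log2 fold change of -0.12 (-0.47 to 0.22), and *Stk11* had 789 ± 88.0 and 781 ± 121 (SD, n = 5 each), a log2 fold change of 0.02 (-0.25 to 0.29). These intervals do not reach the WAT fold changes of the same genes. The log2 fold changes of *Prkab2*, *Prkag1* and *Prkag2* in liver were 0.10, -0.08 and 0.14.

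Whether the genotypes differed more in one tissue than in the other was tested as an interaction term (WAT fold change minus liver fold change) in 1 limma fit over all 19 libraries. *Prkab1* (-1.72, 95% confidence interval -2.60 to -0.85, adjusted p = 0.0045), *Prkaa1* (-1.23, -1.87 to -0.58, adjusted p = 0.0057) and *Stk11* (-0.74, -1.29 to -0.18, adjusted p = 0.0419) passed the threshold, as did 29.2% of the 10404 genes tested. With the mouse as a replicate block the call of *Stk11* was lost (-0.73, adjusted p = 0.0525), and those of *Prkab1* and *Prkaa1* were kept. The other 4 genes did not pass, with adjusted p of 0.0989 for *Prkag2*, 0.107 for *Prkag1*, 0.257 for *Prkaa2* and 0.614 for *Prkab2*.

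**Figure D2:**
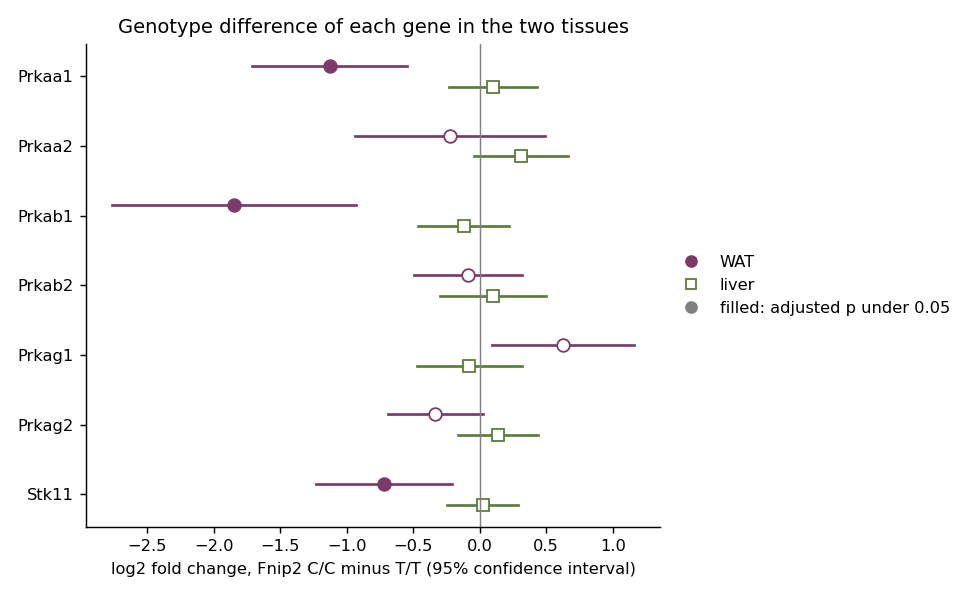
Log2 fold change of C/C minus T/T for each gene in WAT (circles) and liver (squares), with lines for the 95% confidence interval and filled symbols for an adjusted p under 0.05. *Prkaa1* (-1.13), *Prkab1* (-1.84) and *Stk11* (-0.72) stand to the left of 0 in WAT, *Prkag1* (0.62) stands to the right without passing the threshold, and the liver values lie between -0.12 and 0.31.

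The levels of each gene were also set side by side across the 4 groups in RPM, the reads of a gene scaled to an equal library total. The tissues were normalized separately and started from different amounts of RNA (500 ng for WAT and 250 ng for liver), so no test between them was made, and groups are called apart only where their means ± SD did not overlap. *Prkaa1* stood at 37.1 ± 9.31 (SD, n = 5) in T/T WAT, apart from 16.6 ± 7.35 (SD, n = 4) in C/C WAT, which was not apart from the 10.6 ± 1.04 and 10.004 ± 1.64 (SD, n = 5 each) of the C/C and T/T livers. *Prkaa2* had the opposite order of tissues, with 24.6 ± 3.38 and 20.3 ± 4.71 (SD, n = 5 each) in the same livers, apart from 7.44 ± 3.23 (SD, n = 5) in T/T and 5.52 ± 0.57 (SD, n = 4) in C/C WAT.

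The β genes likewise differed in where they were high. *Prkab2* had 43.0 ± 8.38 (SD, n = 5) and 38.3 ± 7.40 (SD, n = 4) in T/T and C/C WAT, apart from 6.55 ± 0.36 and 6.32 ± 1.58 (SD, n = 5 each) in C/C and T/T livers. *Prkab1* had 12.4 ± 2.56 and 11.2 ± 1.87 (SD, n = 5 each) in T/T and C/C livers and 7.11 ± 3.00 (SD, n = 5) in T/T WAT, none apart from its neighbour, and then 1.71 ± 0.86 (SD, n = 4) in C/C WAT, apart from the rest. *Prkag1*, *Prkag2* and *Stk11* differed less across the groups. *Prkag1* ran from 186 ± 47.2 (SD, n = 4) in C/C WAT to 73.9 ± 15.7 (SD, n = 5) in C/C liver with no neighbours apart, *Prkag2* was highest in T/T WAT (56.6 ± 4.30, SD, n = 5), apart from 42.8 ± 5.83 (SD, n = 4) in C/C WAT, and *Stk11* was highest in T/T WAT (134 ± 7.43, SD, n = 5) and lowest in C/C WAT (81.6 ± 27.5, SD, n = 4).

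Ratios of paralogous genes within a library do not change with its scaling. Because 3′ capture can differ between transcripts, the ratios are compared between libraries and not read as ratios of molecules, and they are given as a description without a test. The log2 ratio of *Prkab2* to *Prkab1* in WAT ranged from 3.82 to 5.22 in C/C and from 2.01 to 3.52 in T/T, with no overlap, and the means differed by 1.90. *Prkab2* itself had a WAT log2 fold change of -0.09, so this ratio largely restates the separation of *Prkab1*. *Prkab1* had only 4 to 12 reads in the C/C WAT libraries, and 26.1% of all genes tested in WAT did not overlap. In liver the ratio ranged from -1.14 to -0.33 and from -1.34 to -0.49, overlapping, and all liver libraries lay below all WAT libraries.

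The log2 ratio of *Prkaa2* to *Prkaa1* in WAT was -1.50 ± 0.58 (SD, n = 4) in C/C and -2.41 ± 0.46 (SD, n = 5) in T/T, with overlapping libraries, and in liver 1.21 ± 0.30 and 1.00 ± 0.31 (SD, n = 5 each). The log2 ratio of *Prkag2* to *Prkag1* in WAT was -2.10 ± 0.43 (SD, n = 4) and -1.14 ± 0.48 (SD, n = 5), lower in C/C and again overlapping, and in liver -0.94 ± 0.23 and -1.16 ± 0.22 (SD, n = 5 each). Leaving out each mouse in turn kept the sign of the 3 WAT differences, which ranged from 1.70 to 2.16 for the β genes, from 0.74 to 1.16 for the α genes and from -1.15 to -0.81 for the γ genes.

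**Figure D3:**
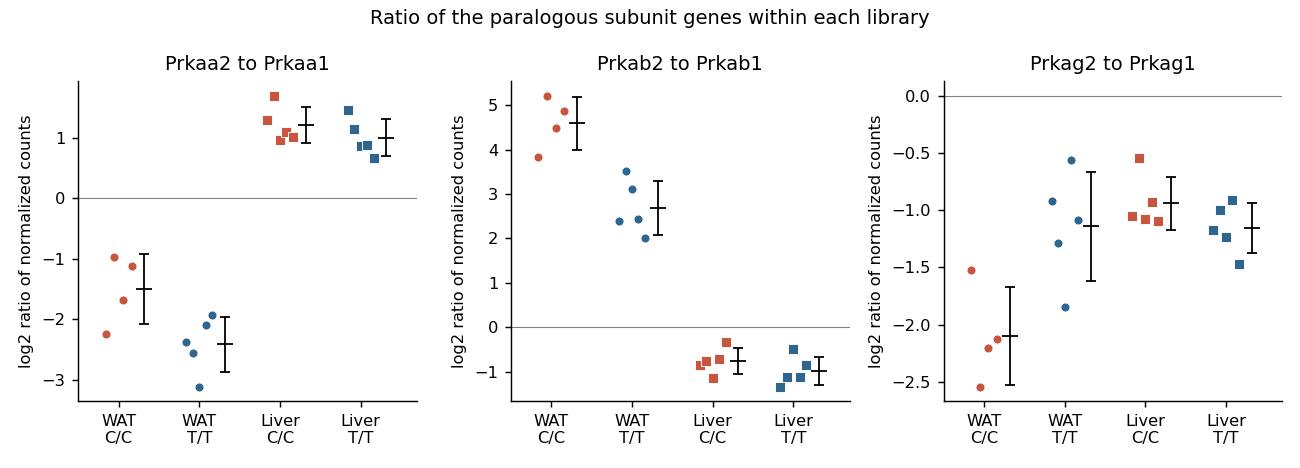
Log2 ratio of normalized counts of the paralogous α, β and γ subunit genes in every WAT library (circles) and liver library (squares), with the mean ± SD of each group in black and a grey line at 0. The β ratio separates the genotypes in WAT (at least 3.82 against at most 3.52), with only 4 to 12 reads of *Prkab1* in the C/C libraries. The genotypes did not overlap for 26.1% of all genes tested in WAT. The α and β ratios separate WAT from liver in opposite directions.

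The variation among mice within a genotype and tissue was described by subtracting each group's mean from the log2 values of the 19 libraries. These values share library preparation, depth and, for 6 mice, the animal, and the correlations are given without a test. Among the 21 pairs of the 7 genes, Pearson's r ranged from -0.67 (*Prkaa2* and *Prkag1*) to 0.72 (*Prkaa1* and *Prkab1*), with a median of 0.26. In the 9 WAT libraries alone *Prkaa1* and *Prkab1* had r = 0.82, and *Prkag1* had r = -0.82 with *Prkaa2*, -0.79 with *Prkab1* and -0.72 with *Prkaa1*. In the 10 livers the highest r was that of *Prkag2* and *Stk11*, 0.92, and *Prkaa1* and *Prkab1* had r = 0.14.

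Likeness was searched among the 6064 genes whose mean reached 50 in both tissues. The values below are the highest of that search over 19 libraries, and how high they would be by chance was not tested. Those whose group-centred values were most like *Prkaa1* were *Trafd1* (r = 0.94), *Mbd6* (0.87) and *Sec16a* (0.85). For *Prkab1* they were *Ndufa1* (0.90), *Txn1* (0.89) and *Fnta* (0.89), and for *Stk11* they were *Lsm10* (0.94), *Uba1* (0.93) and *Ap4b1* (0.93). *Prkag1* was followed most closely by *Spr* (0.97), *Emc10* (0.94) and *Lmna* (0.93). The highest values for the others were *Ndufa8* (0.84), *Cyp27a1* (0.83) and *Ube2h* (0.83) for *Prkaa2*, *Epm2aip1* (0.78), *Stk24* (0.73) and *Anxa4* (0.72) for *Prkab2*, and *Uqcrc1* (0.77), *Ifrd1* (0.76) and *Gngt2* (0.74) for *Prkag2*.

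The genes of the LKB1 complex were taken with other kinases that act on AMPK. This list and those below were chosen with earlier results of these data known. Of the 7 genes listed, 6 were tested in WAT, 3 fell in C/C (*Strada*, *Stradb* and *Cab39l*) and none rose, with a median log2 fold change of -0.44. Over all genes tested in WAT these values were 17% lower, 15.1% higher and 0.019, and they are the background for each list below. *Strada* and *Stradb* encode the STRAD pseudokinases that activate LKB1, and *Cab39l* encodes MO25β, which stabilises the complex. *Strada* had normalized counts of 41.2, 23.4, 36.9 and 22.3 in C/C and of 92.7, 61.3, 71.4, 66.4 and 78.1 in T/T WAT, so the genotypes did not overlap. Its log2 fold change was -1.27 (95% confidence interval -1.81 to -0.73, limma adjusted p = 0.0032).

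*Cab39l* had means of 99.1 ± 19.9 (SD, n = 4) and 186 ± 42.2 (SD, n = 5) with no overlap, a log2 fold change of -0.90 (limma adjusted p = 0.0086). *Stradb* had 51.5 ± 9.68 (SD, n = 4) and 80.8 ± 7.74 (SD, n = 5), also with no overlap, a log2 fold change of -0.66 (limma adjusted p = 0.0254) whose call was lost without mouse 593, 638, 607 or 658 in turn (adjusted p up to 0.0659) and without mice 593 and 609 together (adjusted p = 0.0563). *Cab39*, the gene of the other MO25 protein, had a log2 fold change of 0.27 (limma adjusted p = 0.359), *Camkk2* 0.29 (0.269) and *Map3k7* -0.22 (0.407), and *Camkk1* was under the minimum level. None of the 6 genes tested in liver passed the threshold, and in the interaction *Strada* (-1.17, adjusted p = 0.0053), *Cab39l* (-0.92, 0.0081) and *Stradb* (-0.86, 0.0112) passed.

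**Figure D4:**
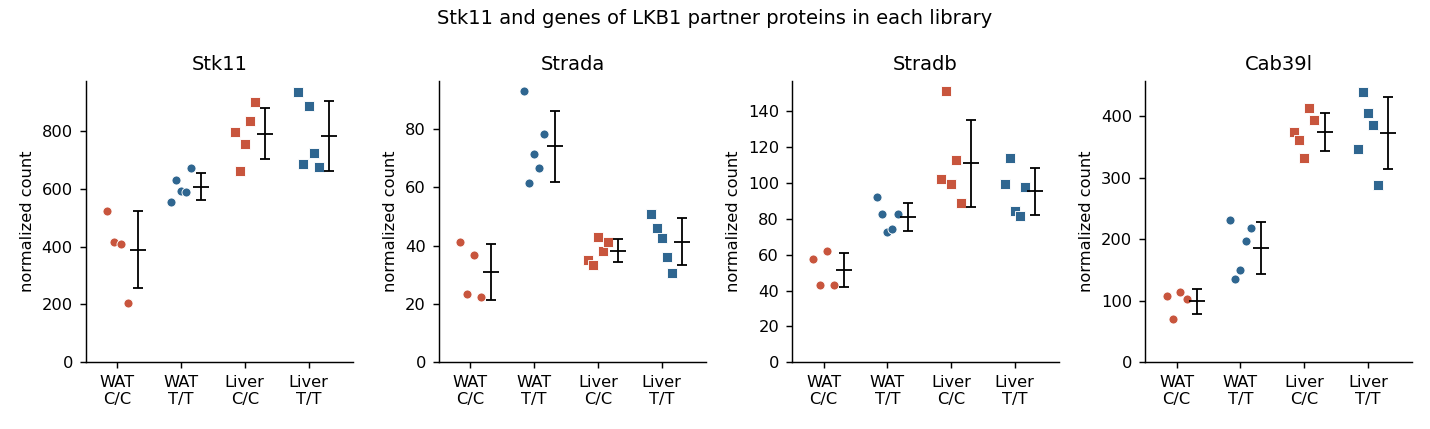
Normalized count (linear axis from 0) of *Stk11* and of the LKB1 partner genes *Strada*, *Stradb* and *Cab39l* in every WAT library (circles) and liver library (squares), with C/C in red, T/T in blue, and the mean ± SD in black. For all 4 genes the C/C WAT libraries lie below the T/T WAT libraries, and the liver groups overlap. The partners drawn are the 3 called in WAT, and 26.1% of all genes tested there did not overlap.

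Among the 12 AMPK-related kinases that LKB1 activates, 11 were tested in WAT, 4 rose, 1 fell and 6 did not pass, with a median log2 fold change of 0.36 (beside 15.1% higher, 17% lower and a median of 0.019 over all genes). *Mark3* and *Mark1*, kinases of the microtubule affinity-regulating family, rose by 0.77 (limma adjusted p = 0.0041) and 1.58 (limma adjusted p = 0.0066) on the log2 scale. The normalized count of *Mark1* was 293 in the C/C mouse 593, whose library held ovary markers, and 82.4 to 128 in the other C/C mice. Without each mouse in turn the log2 fold change of *Mark1* ranged from 1.20 to 1.80, and the call was kept. *Sik3*, a salt-inducible kinase, rose by 0.78 (limma adjusted p = 0.0043), and *Mark4* also rose. *Snrk* fell by 0.70 (limma adjusted p = 0.0305), a call lost without mouse 593, 599, 607 or 657 in turn (adjusted p up to 0.0791) and without mice 593 and 609 together (0.0739). The number of calls in the list was 3 without mouse 593, 599, 607 or 657.

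Of 31 genes of AMPK substrates, 28 were tested in WAT, 8 fell and 4 rose, beside the 32.1% called over all genes, and the median log2 fold change was -0.48. *Pnpla2*, which encodes the adipose triglyceride lipase, fell by 1.82 on the log2 scale (limma adjusted p = 0.0014). *Mff*, a receptor for mitochondrial fission, fell by 1.27 (0.0025), *Hdac5*, a class IIa histone deacetylase, by 1.45 (0.0028), and *Gys2*, the glycogen synthase best known from liver, by 2.46 (0.0103). *Gys2* had 1 read in the C/C mouse 638, and without that mouse its log2 fold change was -1.66 and still called. Of the 3 hepatocyte markers tested in WAT, *Alb* and *Cyp2e1* were lower like *Gys2*. The third, *Apoa1*, had a positive log2 fold change of 1.37 that was not called (limma adjusted p = 0.376). The sums of the hepatocyte markers were 203 to 659 in C/C and 833 to 2891 in T/T WAT. Whether liver cells had a part in the fall of *Gys2* was not tested. The genes that rose were *Tsc2*, *Srebf2*, *Gys1* and *Atg9a*, while *Acaca* and *Acacb*, whose acetyl-CoA carboxylases are the classical substrates, had log2 fold changes of -0.64 and -0.61 with adjusted p of 0.173 and 0.172. Without 1 mouse the number of calls was as low as 6 (without mouse 638 or 657) and 7 (without mouse 599), while over all genes it went from 4111 to 3039, 3010 and 3392.

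Of 19 genes of AMPK partners, phosphatases and modifiers, 18 were tested in WAT, 3 fell and 3 rose, a share near the 32.1% called over all genes, and the median log2 fold change was -0.08. *Mkrn1* and *Ube2o*, which encode ubiquitin ligases that act on AMPK α subunits, fell by 1.42 (limma adjusted p = 0.0024) and 1.23 (0.0033), and *Lamtor1*, the lysosomal anchor of the Ragulator complex, fell by 1.00 (0.0047). *Nmt1*, an N-myristoyltransferase of the family that modifies β subunits, rose by 0.76 (0.0312), a call lost without mouse 599, 638, 607, 608, 657 or 658 in turn (adjusted p up to 0.0956). The number of calls fell to 3 without mouse 638, 607, 657 or 658. *Fnip2* itself had a log2 fold change of -0.27 (95% confidence interval -1.01 to 0.48), *Fnip1* of 0.01 and *Flcn* of -0.66 (limma adjusted p = 0.138) in WAT, and none was called in either tissue. In liver *Fnip2* had means of 155 ± 29.2 and 104 ± 33.2 (SD, n = 5 each), which is 0.63 on the log2 scale (limma adjusted p = 1.00). The interaction of *Fnip2* (WAT minus liver) was -0.90 and missed the threshold (limma adjusted p = 0.102). It passed without mice 593 and 609 together (-1.26, adjusted p = 0.0161). It also passed without mouse 609 alone (-1.11, adjusted p = 0.0301) and with library weights (-1.10, adjusted p = 0.0296). The other 24 fits left it uncalled.

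Of 10 enzymes that set the balance of adenine nucleotides, 5 were tested in WAT and 3 fell, beside the 17% of all genes that were lower. *Adk*, the adenosine kinase, fell by 1.01 (limma adjusted p = 0.0020), and *Ak1*, the cytosolic adenylate kinase, by 1.00 (0.0139), with a median of -0.997 over the list. In liver no gene of the 5 lists was called, and the interaction passed for 3 of 6 LKB1 partners, 5 of 10 AMPK-related kinases, 11 of 27 substrates, 5 of 16 partners and 2 of 3 enzymes tested in both tissues, beside the 29.2% of all genes.

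**Figure D5:**
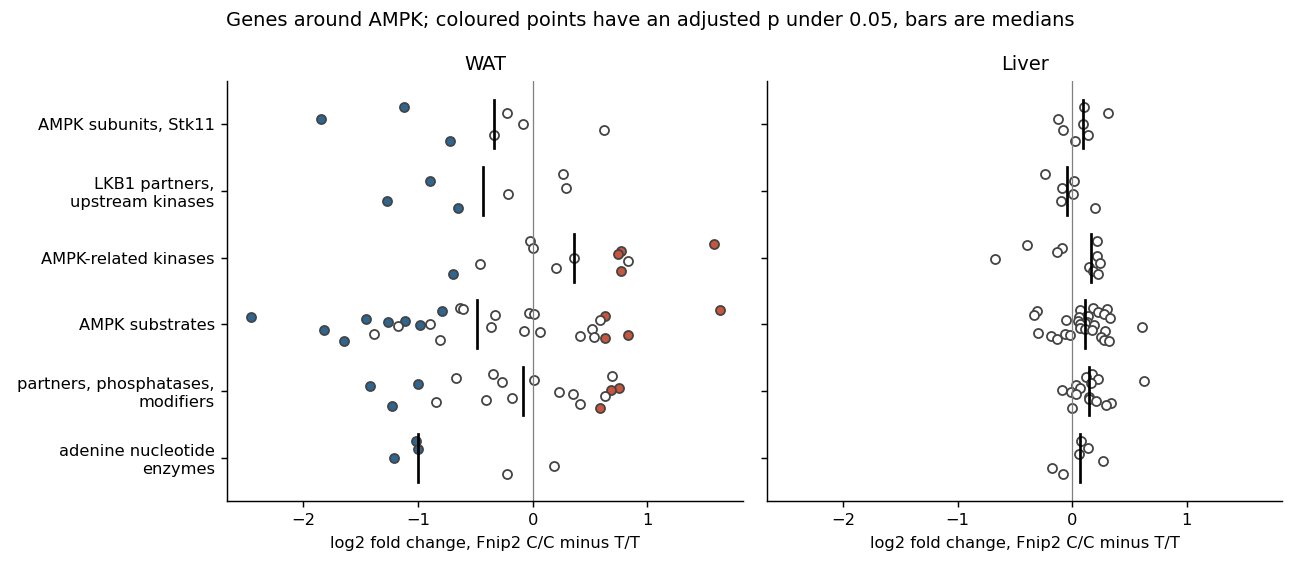
Log2 fold change of C/C minus T/T for every tested gene of the AMPK subunits with *Stk11* and of 5 lists around AMPK, in WAT (left) and liver (right). Points in blue (lower) and red (higher) have an adjusted p under 0.05, open points do not, and black bars are medians. In WAT the LKB1 partner and adenine nucleotide lists have called genes on the lower side alone, the AMPK-related kinases have 4 of 5 on the higher side (over all genes 17% were lower and 15.1% higher), and in liver no gene is called.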

How the data were processed

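Visceral WAT and liver of female mice of both genotypes were measured with QuantSeq 3′ mRNA libraries, and samples were grouped by the genotype, tissue and mouse number in the labels (76 runs, 4 per mouse and tissue, held as 1 column per mouse). The deposited values are a signal, gene counts divided by a size factor per library, made by the authors for each tissue separately. The submitters' processing notes name FastQC 0.11.9, HISAT2, SAMtools 1.12, HTSeq, DESeq2 and the build GRCm39. Because the annotation at hand was on GRCm38, no gene coordinates are given. Division by 1 read's worth gave whole numbers for 100% of the values within 0.001, and these reads were used for depth, for RPM and for edgeR and DESeq2. In the WAT table, 1 column matched no label, so its group is not known and it was not used, and a few repeated names (7 in WAT, 2 in liver) stand for more than 1 gene.

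Log2(normalized count + 1) was tested two-sided with limma 3.58.1 (R 4.3.3; a mean trend and robust moderation of the variance) for genes with a mean of at least 10, with genotype as the only term. The Benjamini-Hochberg adjustment was over all genes tested, and the threshold was 0.05. This gave 4111 of 12798 genes in WAT and 0 of 11710 in liver, and the test on recovered reads called 4153 and 0 with edgeR 4.0.16 and 4722 and 0 with DESeq2 1.42.0. The interaction used genes kept in both tissues. Libraries with the same number in the 2 tissues come from the same mouse, as the labels give it, and the correlations of their deviations across genes were from -0.258 to 0.186 over 6 mice. P-values set the difference between groups against the spread between mice within a group, moderated over genes. Genes with few reads are limited by counting error as well as by that spread.

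The 7 genes, the 5 lists around AMPK and the marker lists were chosen with earlier results of these data known. The text names the 7 genes, *Prkag3*, *Fnip2*, *Fnip1* and *Flcn*, up to 4 called genes with the lowest WAT p of each list, and for each of the 7 genes the 3 with the highest Pearson's r. Other names were chosen after their values were seen. For 1 called gene of the lists, values are not reported here. Alternatives were other pseudocounts (0.5 and 10), filters (any value above 0, mean of at least 50), scaling to the same total, library weights, mouse numbers (under 610 or over 630) as a covariate, edgeR, DESeq2, a replicate block, each mouse left out and, added after seeing the data, mice 593 and 609 left out together. Within each range of mouse numbers all C/C mice had lower numbers than all T/T mice. The covariate therefore cannot separate the genotype from anything that follows the mouse number within a range.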

Additional observations from a re-analysis of the deposited data

Results flagged for a closer look

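The effect of the genotype differed between the tissues for 3 of the 7 genes in a test of the difference itself (limma interaction, WAT minus liver). The same threshold was passed by 29.2% of the 10404 genes tested. The differences were -1.72 for *Prkab1*, -1.23 for *Prkaa1* and -0.74 for *Stk11* on the log2 scale. That of *Stk11* missed the threshold with the mouse as a block. Among 40 groups of 4 or 5 libraries examined for a library that stands apart, 1 was found, the C/C liver of mouse 591, whose normalized count of *Prkaa1* was 58.8 beside 72.2 to 77.5 in the other 4. Chance alone sets about 1 in 20 such groups apart.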

How the results depend on the processing

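In WAT, 2 to 4 of the 7 genes were called under every alternative and 2 to 4 without each mouse in turn. *Prkaa1* was called in all of them and *Prkab1* in all that tested it (its mean lies under 50). The number of genes called over the whole table was 3196 to 4802 across alternatives and 3010 to 4273 without 1 mouse, and in liver it was 0 throughout. In the interaction, 2 to 4 of the 7 genes were called, with 2189 to 3483 genes in all across alternatives and 2465 to 3451 without 1 mouse. With the mouse as a replicate block, 2753 genes and 2 of the 7 were called, and *Stk11* was the call lost (-0.73, adjusted p = 0.0525). *Stk11* was also lost there with every gene above 0 tested (adjusted p = 0.0541), where more genes enter the adjustment, and in 11 of 19 fits without 1 library. *Prkag2* passed the interaction threshold with the same total (-0.54) and with library weights (-0.58), and *Prkag1* passed in WAT with library weights (0.69); the cause was not tested.

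Changes of sign were seen only among values near 0. *Fnip1* in WAT was -0.065 with the same total, -0.14 with library weights, -0.075 with edgeR, -0.046 with DESeq2, -0.078 without mice 593 and 609, and -0.16 to 0.17 without 1 mouse. *Prkab2* in WAT was -0.18 to 0.042 without 1 mouse. In liver, *Prkag1* was 0.029 with library weights and -0.19 to 0.082 without 1 mouse, *Prkab2* was -0.035 to 0.19 and *Stk11* -0.027 to 0.090. Depth limits *Prkab1*, *Prkaa2*, *Prkag3*, *Fnip2* and *Flcn* in WAT, which had under 60 reads in every library.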

Other observations

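*Cidea*, which encodes a lipid droplet protein of brown fat that binds the AMPK β subunit, was uneven between mice of 1 genotype and was singled out after its values were seen. Its normalized count in WAT was 647, 499, 237 and 7507 in the C/C mice 590, 593, 599 and 638, and 537, 341, 388, 288 and 2224 in the T/T mice 607, 608, 609, 657 and 658. Mice 638 and 658 stood above the rest, 1 in each genotype. Mouse 638 also had the lowest normalized count of *Stk11* in WAT (205), whereas mouse 658 had the highest (671).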
